A study of Mus musculus with 2 samples.

Results

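The small leucine-rich proteoglycans and lubricin are secreted proteins of the extracellular matrix, and 10 of their genes were followed here: Dcn, Bgn, Aspn, Lum, Fmod, Prelp, Omd, Ogn, Chad and Prg4. They were taken by name from the 32285 genes of the count tables, without a threshold on their level but with earlier results of these data known. The cells came from femurs and tibiae of 3 male mice aged 24 months, which carried the INK-ATTAC transgene and received no treatment. In INK-ATTAC mice a fragment of the p16Ink4a promoter drives a suicide gene, so that cells with an active promoter can be killed by a drug, which was not given to these animals. Marrow and crushed bone were digested with enzymes, red cells were lysed, and cells with haematopoietic lineage markers, Ter-119 among them, were removed with magnetic beads. Live CD45- cells were then sorted, the mice were pooled, and 3′ single-cell libraries were made on the 10x Chromium platform, with a single group of mice and no control group.

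Small leucine-rich proteoglycans have a short protein core that curves around leucine-rich repeats, and most bind collagen fibrils and set fibril width and spacing. Many carry chondroitin, dermatan or keratan sulfate chains, and several hold growth factors of the TGF-β and BMP families in the matrix. Lubricin, the product of Prg4, is not built from leucine-rich repeats: it is a long mucin-like glycoprotein made by synovial lining cells and by chondrocytes at the joint surface, where it lowers friction. In bone the family is best known for decorin and biglycan in osteoid, for osteomodulin in mineralizing matrix, and for fibromodulin, asporin and chondroadherin in the tendons, ligaments and cartilage attached to the bone.

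Lane 1 held 116827845 UMIs (unique molecular identifiers, each standing for a captured transcript) over 10968 barcodes, and lane 2 held 120556381 UMIs over 11016 barcodes. The lanes shared 10928 of 11056 barcodes, and over all genes and cells the squares of their differences added up to 0.559 of the added counts. The sample titles call them replicates and the series design describes pooled cells run over lanes. They held the same cells and were counted as 1 sample, with both UMI counts summed per barcode. Separate counting error in each lane would bring the squared differences near 1 of the added counts, so the lanes lie closer than separate draws. The reason was not tested. UMIs summed over both lanes may repeat molecules, and paired lane values are not replication. No test between animals or conditions was therefore possible. Levels are given as CPM, the UMIs of a gene per 1e6 UMIs of the cell class, on the mean of the lanes, and each 95% interval covers counting error only. Because a 3′ library gives a transcript a single tag whatever its length, CPM of different genes can be set side by side without division by length.

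With at least 200 genes and at most 20% of UMIs from mitochondrial genes required, 9573 cells were left. The fibroblast-like cells were the 144 cells (1.5%) of the cluster in which 13 of 13 markers of the Sca-1/PDGFRa fibroblast list were found, clustered with the 10 genes kept out of the variable genes. A marker could count as found with a UMI in only 10% of the cells. Gsn was in 93.1% of them, but Ly6a in 39.6%, Cd34 in 38.2%, Pi16 in 17.4%, Thy1 in 14.6% and Dpp4 in 11.8%. The class was mixed, and its sub-clusters given below differed in these markers. In fibroblast-like cells the summed level of the list was 8367 CPM, mostly Gsn at 4919 CPM, against 530 CPM in the LEPR stromal cells. Of the list, only Pdgfra went the other way, at 244 CPM in 62.5% of fibroblast-like and 380 CPM in 71.0% of LEPR stromal cells. Ly6a, for Sca-1, was at 398 CPM in fibroblast-like cells but 909 CPM in endothelial-like cells, and Cd34 was at 244 and 294 CPM. The 1874 LEPR stromal cells (19.6%) had a UMI of Lepr and at least 5000 CPM of Cxcl12, and both genes are in their marker list, so the summed level of that list (43999 against 2675 CPM in fibroblast-like cells) is partly set by the gate. In all, 1877 cells met the gate, and the 3 in the fibroblast-like cluster were kept in that class. Of list genes the gate did not use, Igfbp5 was at 8839.8 CPM and Kitl at 1783 CPM in LEPR stromal cells. The 63 endothelial-like cells held 6052 CPM of their list, led by Egfl7, against 118 CPM in the fibroblast-like cells, in which Cdh5, Kdr, Emcn and Stab2 were at 0. The 6394 erythroid-like cells (66.8%) remained in spite of the lysis and the Ter-119 depletion, and were much deeper, with a median of 14223 UMIs per cell on the mean of the lanes against 4207 in fibroblast-like, 2593 in LEPR stromal and 1592.5 in endothelial-like cells.

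The fibroblast-like cells also held genes of other types. The 12 osteoblast and osteocyte markers summed to 4147 CPM, mostly Ibsp (3104 CPM), against 3658 CPM in LEPR stromal cells. The 11 chondrocyte markers summed to 443 CPM, led by Cytl1 with Matn1 at 0, and the 4 tendon markers to 352 CPM, led by Thbs4, against 56.0 and 6.81 CPM in LEPR stromal cells. The chondrocyte sum rested on few cells, with Cytl1 at 205 CPM in 5 of the 144. Without the cell with the most Prg4, described below, Cytl1 was at 155 CPM, and Sox9 fell from 140 to 67.2 CPM. The synovial lining and articular surface markers Cd55, Creb5, Hbegf, Has1, Clic5 and Tspan15 were at 143, 138, 137, 69.0, 21.4 and 15.3 CPM. In LEPR stromal cells they were at 5.41, 1.31, 10.8, 0.746, 12.2 and 0.840 CPM. The 11 pericyte and smooth muscle markers summed to 945 CPM, led by Rgs5. The 14 erythroid markers, led by Hbb-bs, summed to 6620 CPM in fibroblast-like, 2501 CPM in LEPR stromal and 8422 CPM in endothelial-like cells, and their part in the levels below was not tested. The leucocyte gene Ptprc stood at 1.83 CPM and was seen in 2 of the 144 cells.

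Among the class I proteoglycans, Dcn encodes decorin, which binds collagen fibrils and TGF-β and carries a single glycosaminoglycan chain. It was the most abundant of the 10 genes in fibroblast-like cells, with 10287 CPM in lane 1 and 10249.7 CPM in lane 2 (95% interval of the mean 10049.7 to 10489.9). A Dcn UMI was found in 118 of 144 fibroblast-like cells (81.9%, interval 74.7 to 87.9) and in 1251 LEPR stromal cells (66.8%), where the level was 731 CPM in lane 1 and 702 CPM in lane 2. Erythroid-like cells, which are not known to make decorin, had a Dcn UMI in 3.16% of cells at 1.13 CPM in spite of their greater depth. With each cell of lane 1 thinned to 1000 UMIs, the shares were 73.4% of 143 fibroblast-like, 39.7% of 1747 LEPR stromal and 0.175% of 6282 erythroid-like cells. No Dcn UMI was seen in 63 endothelial-like cells, for which 3 counts would be a level of 17.5 CPM and 4.76% of cells with a UMI, and cells with the transcript but no captured UMI are not seen.

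Bgn encodes biglycan, a close relative of decorin that is prominent in bone matrix, and its pattern was the opposite. It was at 982 and 914 CPM in lanes 1 and 2 in fibroblast-like cells (interval 882 to 1017) and at 1801 and 1839 CPM in LEPR stromal cells (interval 1784 to 1857). The intervals did not overlap, and the LEPR stromal cells were the higher class. A Bgn UMI was found in 122 fibroblast-like (84.7%) and 1758 LEPR stromal cells (93.8%), against 5.18% of erythroid-like cells. Thinned to 1000 UMIs, 51.7% of fibroblast-like and 75.1% of LEPR stromal cells kept a UMI, against 0.334% of erythroid-like cells.

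Aspn encodes asporin, which has a run of aspartate residues in place of the attachment site for a chain and binds collagen and calcium. Its level was 1080.0 and 1078 CPM in lanes 1 and 2 in fibroblast-like cells (interval 1009 to 1152) but only 1.59 CPM in LEPR stromal cells (interval 0.706 to 3.07). It was found in 73 fibroblast-like cells (50.7%) and in 8 LEPR stromal cells (0.427%). The share in LEPR stromal cells lay below that in erythroid-like cells (2.33%), which were deeper, so expression and background cannot be told apart there. After thinning the shares were 32.2%, 0.114% and 0.0796%.

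The class II genes encode keratan sulfate proteoglycans and their relatives. Lum, for lumican, which keeps collagen fibrils thin and evenly spaced in the cornea and is widespread in connective tissue, was at 1176 and 1166 CPM in the lanes of fibroblast-like cells (interval 1098 to 1247) and at 176 and 184 CPM in LEPR stromal cells. It was found in 88 fibroblast-like (61.1%), 562 LEPR stromal (30.0%) and 0.907% of erythroid-like cells. Fmod, for fibromodulin, a tendon proteoglycan that modifies collagen cross-linking, was at 374 and 421 CPM in the lanes of fibroblast-like cells (interval 356 to 444). It was concentrated in few cells: 30 fibroblast-like cells (20.8%) had a UMI, and 5 cells held 47.9% of its UMIs there. In LEPR stromal cells it was found in 26 cells (1.39%) at 3.36 CPM, and in erythroid-like cells in 5 cells at 0.0241 CPM.

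Prelp encodes a proline- and arginine-rich protein that binds heparan sulfate and anchors basement membranes to collagen. Fibroblast-like and LEPR stromal cells held levels of it within 2-fold, 292 CPM (interval 257 to 332) and 343 CPM (interval 328 to 359). Without the single fibroblast-like cell with the most Prg4 UMIs, the fibroblast-like level was 235 CPM (interval 202 to 271). The share of cells was alike, 54.2% and 58.8%, against 1.35% of erythroid-like cells. Thinned, the shares were 21.7%, 24.8% and 0.0637%. Omd encodes osteomodulin, an acidic proteoglycan of mineralized matrix that binds hydroxyapatite. It was the lowest of the 10 genes in fibroblast-like cells, at 140.1 and 125 CPM in the lanes (interval 109 to 160), with a UMI in 37 cells (25.7%). In LEPR stromal cells it was at 22.2 CPM with a UMI in 8.06% of cells, and in erythroid-like cells at 1.39 CPM with a UMI in 3.55%.

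Ogn, the class III member, encodes osteoglycin, also known as mimecan. It was at 748 and 702 CPM in the lanes of fibroblast-like cells (interval 668 to 785), above the 365 and 376 CPM of LEPR stromal cells, while its share of cells was alike in both classes (58.3% and 60.4%, against 1.58% of erythroid-like cells). Chad encodes chondroadherin, a cartilage protein without a glycosaminoglycan chain that binds integrins and type II collagen. Its 379 and 349 CPM in the lanes of fibroblast-like cells came from 19 cells (13.2%). A single LEPR stromal cell had a Chad UMI, in lane 2 only, and 4 erythroid-like cells had one, in lane 1 only, while the megakaryocyte-like cluster was at 6.34 CPM, all of it from a single cell. Prg4 came after Dcn by level in fibroblast-like cells, at 3396 and 3380.1 CPM in the lanes (interval 3263 to 3517), although only 56 cells (38.9%) had a UMI. LEPR stromal cells held 21.3 CPM of Prg4 with a UMI in 3.84% of cells, endothelial-like cells 40.8 CPM in 3 cells, and 0.829% of erythroid-like cells had a UMI.

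In order of level, fibroblast-like cells ran Dcn, Prg4, Lum, Aspn, Bgn, Ogn, Fmod, Chad, Prelp and Omd, where the intervals of Lum and Aspn, of Aspn and Bgn, of Fmod and Chad, and of Chad and Prelp overlapped and those of other neighbours did not. LEPR stromal cells ran Bgn, Dcn, Ogn, Prelp, Lum, Omd, Prg4, Fmod, Aspn and Chad, with overlap between Ogn and Prelp, Omd and Prg4, Fmod and Aspn, and Aspn and Chad. The order in fibroblast-like cells rested in part on the single cell with the most Prg4: without it Prg4 was at 1278 CPM (interval 1199.95 to 1359) and overlapped Lum at 1184 CPM (interval 1109 to 1262). Chad, at 141 CPM without it, fell below Prelp (235 CPM) and overlapped Omd (136 CPM). The order differed between the classes, with Bgn leading in LEPR stromal cells and Dcn in fibroblast-like cells. The 10 genes together made up 1.88% of all UMIs in fibroblast-like cells, of which Dcn gave 54.7%, and 0.348% in LEPR stromal cells, of which Bgn gave 52.3%.

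**Figure D1:**
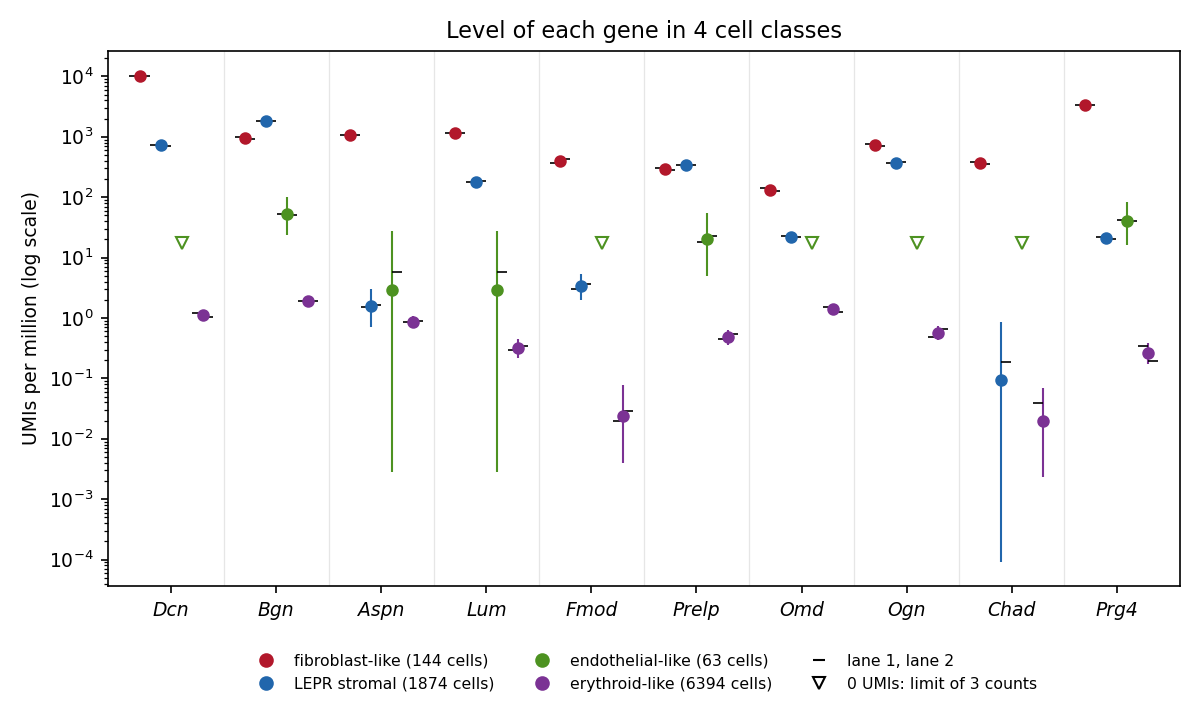
Level of each gene in CPM (log axis) in 144 fibroblast-like, 1874 LEPR stromal, 63 endothelial-like and 6394 erythroid-like cells; dots are the mean of the lanes with 95% counting intervals, dashes the 2 lanes, and open triangles the limit set by 3 counts where no UMI was seen. Bgn is highest in LEPR stromal cells (1820.2 CPM), Prelp is within 2-fold between the stromal classes, and Aspn and Chad fall to 1.59 and 0.0933 CPM in LEPR stromal cells.

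Seen from the side of the genes, the fibroblast-like cells, 1.5% of all cells, held 95.7% of the Chad UMIs of all cells, 93.6% of Prg4, 90.9% of Fmod, 85.9% of Aspn and 65.4% of Dcn. They held only 6.79% of Bgn and 10.7% of Prelp, of which the LEPR stromal cells held 85.4% and 82.0%. Lum was split evenly, 46.8% against 47.2%. Of Omd, the erythroid-like cells held the largest share, 36.7%, ahead of LEPR stromal (30.5%) and fibroblast-like cells (27.8%), a class that made up 66.8% of the cells and was the deepest.

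The comparison of fibroblast-like with LEPR stromal cells asked which of the genes set the 2 stromal populations apart. Past 2-fold with at least 20 UMIs over both classes, 7 of 10 genes were higher in fibroblast-like cells, where 10.0% of the 11771 genes tested were, and 0 of 10 were lower, where 21.2% were. Their median log2 ratio was 3.27, against -0.24 over all genes tested. The 10 genes were chosen with earlier results of these data known, and Prg4 and Aspn were among the leading genes of the fibroblast-like cluster. These counts therefore describe the genes and do not test them as a set. The steepest were Chad, with a log2 ratio of 11.93 (interval 8.69 to 21.92) that rests on 1 UMI in the LEPR stromal cells, and Aspn at 9.41 (interval 8.45 to 10.58). Prg4 followed at 7.32 (7.27 in lane 1, 7.36 in lane 2) and Fmod at 6.89 (6.95 and 6.84). Dcn, at 3.84 (3.81 and 3.87), Lum, at 2.70 (2.74 and 2.66), and Omd, at 2.58 (2.63 and 2.52), differed less.

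For 3 genes the classes lay within 2-fold. Ogn was higher in fibroblast-like cells by a log2 ratio of 0.97 (interval 0.83 to 1.10), and the lanes fell on both sides of the threshold, at 1.04 and 0.90. Prelp had a log2 ratio of -0.23 (interval -0.43 to -0.04). Bgn had a log2 ratio of -0.94 (interval -1.05 to -0.84), with -0.87 in lane 1 and -1.01 in lane 2, so it passed 2-fold lower in lane 2 alone, and also in both lanes together without the cell with the most Prg4 described below.

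**Figure D2:**
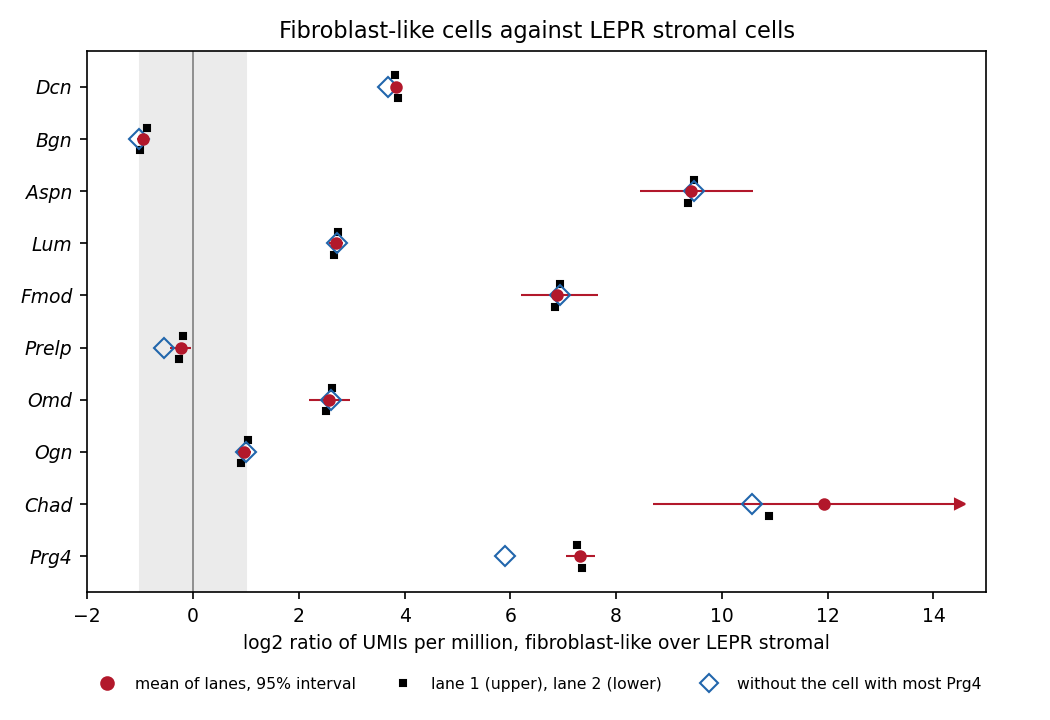
Log2 ratio of CPM, fibroblast-like over LEPR stromal cells, for each gene; red dots with bars are the mean of the lanes with 95% counting intervals (an arrow marks an interval that runs past the axis), black squares the lanes, open diamonds the value without the cell with the most Prg4 UMIs, and the grey band marks less than 2-fold. Bgn, Prelp and Ogn lie within or at the edge of the band, and the diamond is furthest from the dot for Prg4 (5.91 against 7.32) and Chad (10.56 against 11.93).

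Against endothelial-like cells, 10 of 10 genes were higher in fibroblast-like cells, where 19.4% of 6502 genes tested were higher and 10.5% lower. For genes with no UMI in endothelial-like cells, the fold was set over a floor of 3 counts for the class. It was 588 for Dcn, 41.5 for Ogn, 22.8 for Fmod, 20.8 for Chad and 7.58 for Omd. The interval for a gene at 0 in this class reached 21.5 CPM, above that floor, so these folds are not lower limits. The Chad fold rests largely on the cell with the most Prg4, without which Chad in fibroblast-like cells was at 141 CPM. Lum and Aspn, with 1 UMI each in endothelial-like cells, had log2 ratios of 8.65 (interval 5.42 to 18.64) and 8.53 (interval 5.31 to 18.53). Among the genes with a UMI in endothelial-like cells, the smallest ratios were those of Prelp, 3.84 (interval 2.38 to 5.90), and Bgn, 4.18 (interval 3.24 to 5.31). In the endothelial-like class, 51 of 63 cells had no UMI of any of the 10 genes.

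Against erythroid-like cells, 10 of 10 genes were likewise higher, where 34.8% of 12790 genes tested were higher and 21.0% lower. The log2 ratio ran from 6.58 (interval 6.21 to 6.95) for Omd to 14.20 (interval 12.34 to 17.26) for Chad, and Dcn was at 13.15. Without the cell with the most Prg4, Chad was at 12.84 and Fmod, at 14.06, was the highest. For LEPR stromal over erythroid-like cells, 8 of 10 genes were higher, where 46.8% of 13841 genes tested were higher and 19.5% lower. The exceptions were Aspn, with a log2 ratio of 0.87 (interval -0.34 to 1.88), and Chad, with too few UMIs to be called. The Aspn value depended on how the cells were gated, since in the cluster named LEPR stromal it was at 7.998 CPM, against 1.59 CPM in the gated cells and 0.869 CPM in erythroid-like cells. In the gated cells Bgn (9.91), Prelp (9.46), Ogn (9.34), Dcn (9.31) and Lum (9.15) stood far above the erythroid-like level.

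Much of the Prg4 and Chad signal came from a single fibroblast-like cell. It had 59856 UMIs over both lanes, 5424 genes and 1.19% mitochondrial UMIs, and was not called a doublet. Its Prg4 UMIs numbered 3533 and its Fn1 UMIs 3529, followed by 2301 of Dcn, 373 of Chad and 359 of Cilp, with 123 UMIs of the cartilage transcription factor Sox9, 16 of Col2a1 and 10 of Acan, and none of Fmod or Aspn. By marker list, it held 438 UMIs of Sca-1/PDGFRa fibroblast markers (5 of 13 found) and 227 of chondrocyte markers (4 of 11). It also held 210 of synovial lining and articular surface markers (3 of 6), 120 of LEPR stromal markers (5 of 12) and 31 of tendon markers (3 of 4). This cell, singled out after its values were seen, held 63.7% of the Prg4 UMIs and 62.6% of the Chad UMIs of the 144 cells, against 13.7% for Dcn. Without it, Prg4 was at 1278 CPM and Chad at 141 CPM, with log2 ratios over LEPR stromal cells of 5.91 and 10.56, while Dcn was at 9199 CPM with a ratio of 3.68. Both genes thus kept their direction without the cell, at a lower level.

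Co-detection was counted in single cells. Fibroblast-like cells had a UMI of a median of 5 of the 10 genes, 85 of 144 cells had at least 5 and 39 at least 7, and 2 cells had none. LEPR stromal cells had a median of 3 and a maximum of 7, and the medians of endothelial-like and erythroid-like cells were 0, with none of the genes in 83.4% of erythroid-like cells. Thinned to 1000 UMIs the medians were 3, 2, 0 and 0. Bgn and Dcn were in the most fibroblast-like cells, 122 and 118. A Dcn UMI was in 87 of 88 cells with Lum (98.9%, against 55.4% of cells without Lum, and 96.4% against 58.6% thinned). It was in 37 of 37 with Omd, against 75.7% of the rest, and in 19 of 19 with Chad, against 79.2%.

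Beyond Dcn, the genes paired unevenly in fibroblast-like cells. Most Fmod cells were Aspn cells: 25 of 30 had an Aspn UMI (83.3%), against 42.1% of cells without Fmod, and thinned to 1000 UMIs the shares were 80.0% and 24.4%. Prelp was found with Fmod as often, in 25 of 30 cells (83.3% against 46.5%, and 60.0% against 15.4% thinned). Chad went with Prg4, which 16 of 19 Chad cells had (84.2% against 32.0% of the rest, and 66.7% against 23.9% thinned). Aspn and Prelp shared 57 cells, 78.1% of Aspn cells against 29.6% of the others (43.5% against 11.3% thinned), whereas Omd was no more frequent in Aspn cells (23.3%) than in the others (28.2%). In LEPR stromal cells the common pair was Dcn and Bgn, with both in 1207 of 1874 cells, and Omd was found with Ogn in 123 of its 151 cells (81.5% against 58.5%), although thinned to 1000 UMIs the shares were 25.0% and 27.2%.

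Cell type markers were also set beside the same genes cell by cell, without thinning, so the part of depth in these shares was not tested. The 34 fibroblast-like cells with Thbs4, a tendon gene, all had Dcn, and 19 had Fmod (55.9% against 10.0% of cells without Thbs4), 29 had Aspn (85.3% against 40.0%) and 14 had Chad (41.2% against 4.55%). The 13 cells with Acan, for the cartilage proteoglycan aggrecan, had Omd in 10 (76.9% against 20.6%) and Chad in 9 (69.2% against 7.63%), but Aspn no more often than other cells (46.2% against 51.1%). The 25 cells with Pi16, a marker of adventitial fibroblasts, had Ogn in 23 against 51.3% of cells without Pi16, Bgn in only 15 (60.0% against 89.9%), Fmod in 1 and Chad in 0. The 44 cells with Ibsp, for bone sialoprotein, had Omd more often (40.9% against 19.0%) and Aspn (15.9% against 66.0%) and Prelp (22.7% against 68.0%) less often than cells without it. The 13 cells with the pericyte gene Rgs5 had Dcn in 4 (30.8% against 87.0%).

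Clustering the fibroblast-like cells again, without the 10 genes among the variable genes, gave 3 sub-clusters, which were coarser than these markers: 30 of the 34 cells with Thbs4, all 13 with Acan and 10 of the 13 with Rgs5 were in sub-cluster 0. Sub-cluster 0 had 71 cells (median 3793 UMIs), all 4 tendon markers and 853 CPM of chondrocyte markers, of which 411 CPM was Cytl1 in 4 cells. It also had 7 of 11 pericyte markers, 3 of 6 synovial lining and articular surface markers and 1737 CPM of Ibsp, so it was mixed and was given no cell type name. Sub-cluster 1 had 40 cells (median 4813 UMIs), 12 of 13 markers of the Sca-1/PDGFRa fibroblast list and 23946 CPM of that list, and likewise 3 of 6 synovial lining and articular surface markers. Sub-cluster 2 had 33 cells (median 3641.5 UMIs), 10 of 12 osteoblast and osteocyte markers summing to 11142 CPM, and no UMI of Ly6a, Cd34, Clec3b, Mfap5, Pi16, Igfbp6, Dpp4 or Cilp. Erythroid Hbb-bs, at 2906, 285 and 3246 CPM, differed among them too, and its part was not tested. The leading genes were Fmod, Chad, Ecrg4, Thbs4 and Nt5e in sub-cluster 0, Col6a6, Pla1a, Il33, Cyp2f2 and Cd248 in sub-cluster 1, and Car3, Slc36a2, Ackr4, Ifitm5 and Vdr in sub-cluster 2.

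In sub-cluster 0, 7 of 10 genes were higher than in the other fibroblast-like cells, where 6.48% of 5614 genes tested were higher and 7.94% lower. Fmod, at 800.4 CPM in 30 of 71 cells, and Chad, at 732 CPM in 19, had no UMI in the other 73 cells. Set over a floor of 3 counts in those cells, Fmod was 109.8-fold and Chad 100.4-fold higher. The lower interval limits of their log2 ratios were 6.47 and 6.34, so these folds are not lower limits. Without the cell with the most Prg4, Chad was at 295 CPM in sub-cluster 0 with a lower interval limit of 5.02. The fold and limit of Chad thus rest largely on that cell. Prg4 was at 6581 CPM in 39 cells, with a log2 ratio of 4.85 (interval 4.55 to 5.16), and without the cell described above at 2422 CPM against 228 CPM, a log2 ratio of 3.41. Aspn, at 1904 CPM in lanes that gave 1900.04 and 1908, had a ratio of 2.86, Prelp of 1.69, Omd of 1.47 and Lum of 1.29. Dcn, Bgn and Ogn lay within 2-fold, at 0.10, 0.52 and -0.11.

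In sub-cluster 1, Dcn and Ogn were higher, 2 of 10 genes, where 11.6% of genes were, and Fmod, Aspn, Chad and Prg4 lower, 4 of 10, where 14.8% were. Dcn reached its highest level there, 20100.3 CPM (interval 19475.7 to 20739.7), which was 82.2% of the UMIs of the 10 genes, with a log2 ratio of 1.48 over the other fibroblast-like cells. Ogn was at 1455 and 1449.6 CPM in the lanes, with a ratio of 1.55. No Fmod or Chad UMI was captured in its 40 cells, where 3 cells with a UMI would be 7.5%. Bgn, by contrast, was at 546 CPM, its lowest among the sub-clusters, with a ratio of -0.97.

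In sub-cluster 2, 0 of 10 genes were higher, where 8.37% of genes were, and 9 of 10 were lower, where 18.1% were. Dcn fell to 729 CPM (log2 ratio -4.23, interval -4.47 to -4.00), close to the 716 CPM of LEPR stromal cells, and Prg4 to 16.2 CPM (-8.15, or -6.76 without the cell with the most Prg4). Aspn (-8.31, interval -13.62 to -5.83) and Prelp (-6.42, interval -11.73 to -3.93) rested on a single cell each. Omd, at 60.0 CPM, had a ratio of -1.40, and its lanes differed, with 93.6 CPM in lane 1 and 27.3 CPM in lane 2. Bgn was the exception at 989.8 CPM, a ratio of 0.09, and was the first of the 10 genes by level in this sub-cluster. The 10 genes together made up 2.48%, 2.45% and 0.234% of UMIs in sub-clusters 0, 1 and 2.

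**Figure D3:**
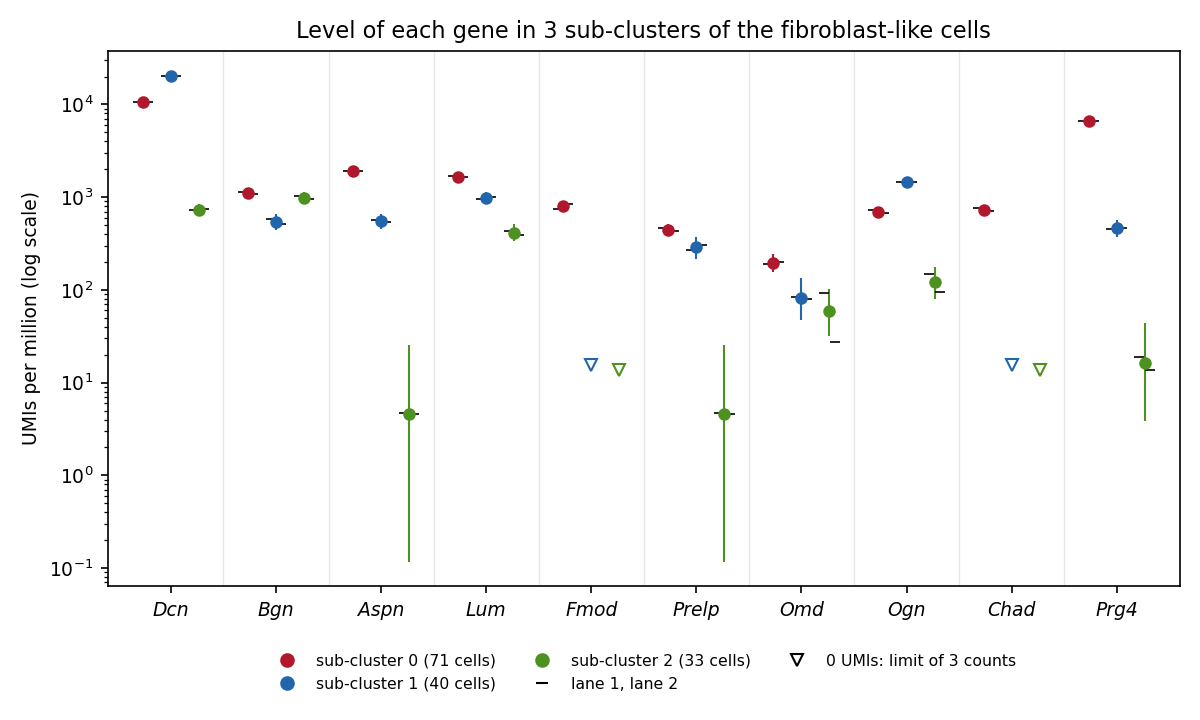
Level of each gene in CPM (log axis) in sub-clusters 0 (71 cells), 1 (40 cells) and 2 (33 cells) of the fibroblast-like cells; dots are the mean of the lanes with 95% counting intervals, dashes the lanes, and open triangles the limit set by 3 counts where no UMI was seen. Fmod and Chad have UMIs only in sub-cluster 0 at this resolution, Dcn and Ogn are highest in sub-cluster 1, and Bgn is the only gene at a like level in sub-clusters 0 and 2 (1117 and 989.8 CPM).

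CD24 osteolineage cells, a population named in the study, were taken here as stromal cells with a UMI of both Cd24a and Runx2, 321 of the 2018 fibroblast-like and LEPR stromal cells. Of these, 303 were LEPR stromal cells, against 1571 of the other 1697, so the groups differ in their mix of classes, and its part in the ratios was not tested apart from the values within LEPR stromal cells. With CD24 measured as protein, the study reports lower Lepr, Adipoq and Cxcl12 in CD24+ cells. It reports a stronger change where Runx2 and Sp7 were also present. The cells taken here mostly passed a gate on Lepr and Cxcl12, without Sp7, and may not be the same population. Against those other cells, Chad and Prg4 were higher, 2 of 10 genes, where 4.10% of 11771 genes were, and Fmod and Aspn lower, 2 of 10, where 2.75% were. The log2 ratios were 3.53 for Chad, 3.00 for Prg4, -3.31 for Fmod and -3.83 for Aspn. The cell with the most Prg4, which had 3 UMIs of Cd24a and 1 of Runx2, was among them, and without it Chad was at 1.03 and Prg4 at -0.26. Among LEPR stromal cells alone, 0 of 10 genes were called higher, where 3.43% of 11358 genes were, and 0 of 10 lower, where 1.73% were, with Fmod, Aspn and Chad too low to be called. Hbb-bs stood at 1611 CPM in the CD24 cells and 666 CPM in the others within that class, and its part in these values was not tested.

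Most of the genes lie in 3 neighbourhoods of the genome, in the GENCODE M21 annotation of GRCm38, with which 32158 of the 32285 gene identifiers of the counts matched. Dcn (ENSMUSG00000019929, 97479609 to 97518143) is on chromosome 10, plus strand, followed after 47.0 kb by Lum (ENSMUSG00000036446, 97565128 to 97572703) and then by the family members Kera and Epyc. On chromosome 13, plus strand, Ecm2 is followed by Aspn (ENSMUSG00000021388, 49544443 to 49567565), Omd (ENSMUSG00000048368, 49582462 to 49592822) and Ogn (ENSMUSG00000021390, 49608046 to 49624501), with gaps of 11.7, 14.9 and 15.2 kb. On chromosome 1, Prelp (ENSMUSG00000041577, minus strand, 133910304 to 133921414) and Fmod (ENSMUSG00000041559, plus strand, 134037254 to 134048277) are 116 kb apart, next to Optc. Bgn (ENSMUSG00000031375) is on chromosome X from 73483602 to 73495933 and Chad (ENSMUSG00000039084) on chromosome 11 from 94565047 to 94569127, both on the plus strand, and Prg4 (ENSMUSG00000006014, minus strand, 150449412 to 150466165) is on chromosome 1. Levels of neighbours differed in part: Lum and Dcn were both found in LEPR stromal cells, their neighbours Kera and Epyc had UMIs in 3 and 0 fibroblast-like cells, and Aspn, Omd and Ogn ranged over log2 ratios of 9.41, 2.58 and 0.97.

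Ecm2, Aspn, Omd and Ogn lie inside Cenpp, a kinetochore gene on the opposite strand that spans 49464023 to 49652785, and whether the counting used strand is not given in the sources used here. Only 1 of 11 Aspn exons overlaps a Cenpp exon, and none of Omd, Ogn or Ecm2 does. Cenpp was a gene of erythroid-like cells, at 83.1 CPM with a UMI in 70.5% of cells, against 25.6 CPM in fibroblast-like and 8.68 CPM in LEPR stromal cells. Chad lies wholly within Acsf2 on the opposite strand, Prelp overlaps the antisense gene Gm15851 over 4519 bases, and Prg4 overlaps Tpr over 524 bases. The low levels of Aspn, Omd, Ogn, Chad, Prelp and Prg4 in cells that lack their main signal are therefore uncertain.

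Set relative to Dcn, the counts of the 10 genes in erythroid-like cells did not have the proportions of either stromal class. Per 100 UMIs of Dcn, fibroblast-like cells had 1.29 of Omd, LEPR stromal cells 3.10 and erythroid-like cells 123 (interval 95.4 to 158). Aspn was at 10.5, 0.221 and 76.9 (interval 57.8 to 102), and the family relative Ecm2 at 1.44, 7.5 and 419. Genes outside Cenpp stayed within the range of the stromal classes or close to it, with Bgn at 9.23, 254 and 168, Lum at 11.4, 25.2 and 28.2, Prelp at 2.85, 47.9 and 43.2 and Prg4 at 33.0, 2.97 and 23.5, and so did Ogn, inside Cenpp, at 7.06, 51.7 and 50.4. Erythroid-like cells with a Cenpp UMI had an Omd UMI in 4.62% of cells and those without in 1.01%. Of the other genes inside Cenpp, the shares were 13.7% against 3.18% for Ecm2, 2.95% against 0.847% for Aspn and 1.82% against 1.01% for Ogn. Outside it they were 5.84% against 3.60% for Bgn, 3.53% against 2.28% for Dcn, 1.47% against 1.06% for Prelp, 1.09% against 0.476% for Lum and 1.04% against 0.318% for Prg4. Cells with a Cenpp UMI were also deeper, with a median of 21482.5 against 3585 UMIs on the mean of the lanes. The source of the Omd, Aspn and Ecm2 counts in erythroid-like cells was not tested.

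**Figure D4:**
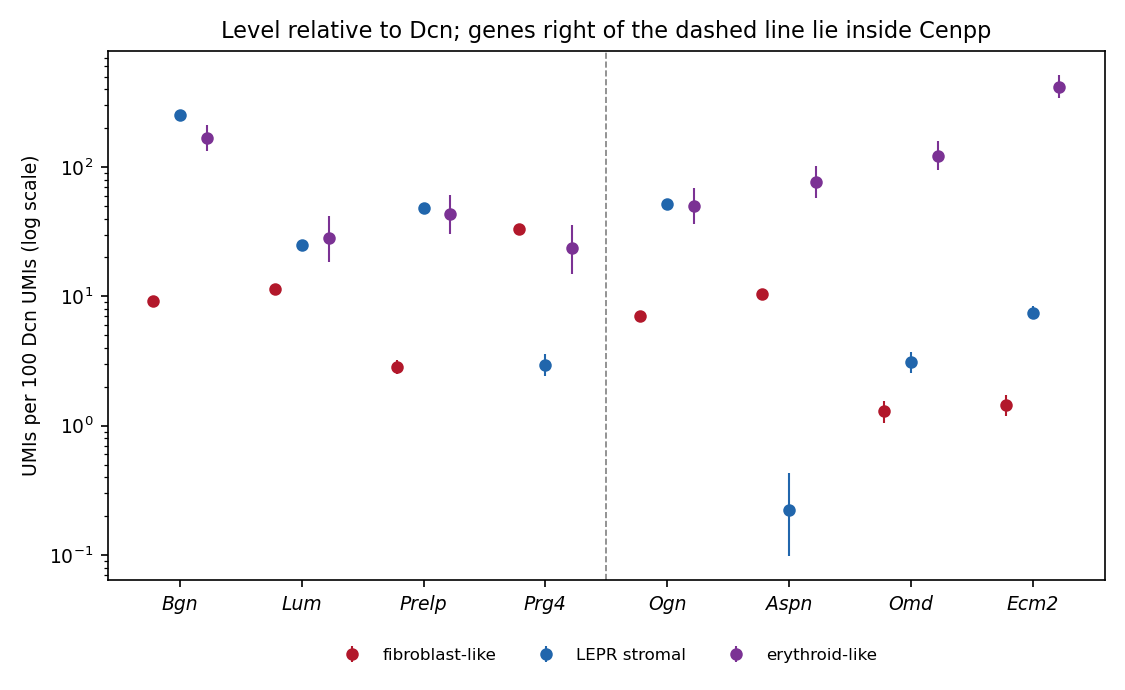
UMIs of each gene per 100 UMIs of Dcn (log axis) in fibroblast-like, LEPR stromal and erythroid-like cells, with 95% counting intervals; genes to the right of the dashed line lie inside Cenpp. Omd (123), Aspn (76.9) and Ecm2 (419) stand above both stromal classes in erythroid-like cells, while Bgn, Prelp, Prg4 and Ogn fall between them.

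RefSeq promoters on GRCm38.p6 were at hand for 7 of the 10 genes and not for Dcn, Lum and Prg4, and the 250 bases before the start were searched. On both strands, TATAAA (the TATA box, reverse complement TTTATA) was in 12.4% of 32851 promoters of this length, TGTGGT (the RUNX core, reverse complement ACCACA) in 14.0%, and TGACTCA or TGAGTCA (AP-1, each the reverse complement of the other) in 4.46%. Fmod, Prelp, Omd and Bgn had none of these motifs. The promoters of Fmod and Chad are shown because both genes were highest in sub-cluster 0, as were most of the 10 genes. Those of Aspn and Ogn are shown because they are neighbours that differed most in their ratio over LEPR stromal cells. That of Bgn is shown because it had the largest ratio in favour of LEPR stromal cells among the 10 genes. Capitals mark the matches. Chad has TATAAA 28 bases before its start (-28), Aspn has it at -207 and TTTATA at -178, and Ogn has TTTATA at -229 overlapping TATAAA at -227, with ACCACA at -65. They are, on the plus strand, Fmod at chr1:134037004-134037253, Chad at chr11:94564797-94565046, Aspn at chr13:49544193-49544442, Ogn at chr13:49607765-49608014 and Bgn at chrX:73483351-73483600.
Fmod: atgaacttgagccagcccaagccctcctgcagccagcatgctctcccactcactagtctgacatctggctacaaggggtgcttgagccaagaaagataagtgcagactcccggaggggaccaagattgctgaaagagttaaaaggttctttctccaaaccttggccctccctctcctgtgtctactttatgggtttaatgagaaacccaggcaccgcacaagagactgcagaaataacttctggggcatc
Chad: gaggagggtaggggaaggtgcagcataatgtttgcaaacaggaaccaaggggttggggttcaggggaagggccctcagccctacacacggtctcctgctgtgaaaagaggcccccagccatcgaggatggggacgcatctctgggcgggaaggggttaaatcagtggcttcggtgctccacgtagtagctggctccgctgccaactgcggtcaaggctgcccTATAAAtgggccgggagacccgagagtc
Aspn: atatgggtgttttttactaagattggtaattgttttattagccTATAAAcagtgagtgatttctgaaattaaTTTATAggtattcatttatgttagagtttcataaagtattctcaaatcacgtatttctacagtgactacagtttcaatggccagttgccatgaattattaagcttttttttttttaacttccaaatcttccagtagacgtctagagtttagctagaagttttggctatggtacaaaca
Ogn: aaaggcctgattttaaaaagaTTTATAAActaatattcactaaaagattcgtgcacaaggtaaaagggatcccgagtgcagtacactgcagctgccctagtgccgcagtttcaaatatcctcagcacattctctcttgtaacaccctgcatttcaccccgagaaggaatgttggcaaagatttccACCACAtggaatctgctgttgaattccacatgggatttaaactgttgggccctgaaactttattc
Bgn: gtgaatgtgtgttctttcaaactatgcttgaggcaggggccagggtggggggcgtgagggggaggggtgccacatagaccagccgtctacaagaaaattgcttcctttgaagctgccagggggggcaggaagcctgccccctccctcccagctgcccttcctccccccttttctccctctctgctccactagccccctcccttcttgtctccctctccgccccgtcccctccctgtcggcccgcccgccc
The matches are a description of letters only. Base composition ranged widely, from 30% G and C in the window of Aspn and 42% in that of Ogn to 51.2% in Fmod, 60.4% in Chad and 64.4% in Bgn, against a median of 52.4% over the promoters.

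Of 9 other genes of the family, 4 had enough UMIs to compare fibroblast-like with LEPR stromal cells. Ecm2 was higher, at 148 against 53.7 CPM (log2 ratio 1.47), and the podocan genes Podn, at 33.6 against 74.9 CPM (-1.16), and Podnl1, at 18.3 against 96.7 CPM (-2.40), were lower, while Tsku was within 2-fold at 3.66 and 6.72 CPM. The podocans thus shared the side of Bgn. Epyc had no UMI in any of the 4 classes, and Kera, Optc, Nyx and Chadl were too low to be called.

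The chains these proteins carry are built by enzymes of chondroitin and dermatan sulfate synthesis, of which 3 of 21 tested were higher in fibroblast-like cells and 8 lower, with a median log2 ratio of -0.66. Csgalnact1, which starts chondroitin chains, was higher (2.57), as were the sulfotransferase Ust (2.24) and the xylosyltransferase Xylt1 (12.2 against 5.32 CPM). Chst15 (-2.62), the epimerase Dse (-1.51), Chpf (-1.39) and Chsy1 (-1.35) were lower. Over all 11771 genes tested, 1181 were higher and 2499 lower with a median of -0.24.

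The collagens and other ligands that the proteoglycans bind went the other way, with 12 of 18 genes higher, 1 lower and a median log2 ratio of 2.18. Col1a1 was at 3557 against 231 CPM, Col1a2 at 3105 against 1127 CPM, Col3a1 at 1571 against 184 CPM and Fn1 at 3288 against 1.87 CPM, of which 1176 CPM was left without the cell with the most Prg4. The single gene that was lower was Thbs1, at 64.7 against 131 CPM. Within the fibroblast-like cells, Col1a1 was highest in sub-cluster 2 (8205 CPM), where 9 of the 10 genes were lowest or absent, and Col3a1 in sub-cluster 1 (3079 CPM), where Dcn was highest.

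Of the growth factors and receptors that bind these proteins, 5 of 16 were higher and 3 lower, with a median log2 ratio of 0.13, where 10.0% of all genes tested were higher and 21.2% lower, so the number lower was near that of all genes. Bmp2 was at 277 against 38.2 CPM, Tgfb2 at 107 against 8.02 CPM, the lubricin receptor Cd44 at 98.9 against 24.8 CPM and Tgfb1 at 78.2 against 35.1 CPM. Bmp4, at 42.7 against 241 CPM, Egfr, at 112 against 232 CPM, and Tlr4, at 24.4 against 56.2 CPM, were lower in fibroblast-like cells. Of the proteases that process the family, 5 of 11 were higher and 0 lower, with a median of 0.27, among them Mmp13 (1539 against 266 CPM), Mmp2 (457 against 19.1 CPM), Ctsk (228 against 106 CPM) and Htra1 (208 against 101 CPM). Of the other proteoglycans, 6 of 17 were higher and 5 lower, with a median of 0.24, and the highest of each side were Sdc4 (303 against 126 CPM) and Esm1 (6.11 against 1072 CPM).

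Across 18 groups of cells, that is the clusters with the fibroblast-like cluster replaced by its sub-clusters, the genes with the most similar pattern were found by Pearson's r of log2(CPM + 1) over 11807 genes with at least 200 UMIs. The groups come from the same libraries and differ in depth, and r is given as a description. Dcn was nearest to Gas1 (r = 0.987), Lum (0.981) and Comp (0.977), and Lum to Gas1 (0.993), Twist1 (0.983) and Dcn. Fmod was nearest to Chad (0.969), Npy (0.958) and Angptl7 (0.895), and Chad to Npy (0.986), Fmod and Cytl1 (0.911). Outside sub-cluster 0, Fmod was at most 5.77 CPM and Chad at most 6.34 CPM, both in the megakaryocyte-like cluster, where a single cell held all their UMIs. Aspn was nearest to Anxa8 (0.965), Fbln7 (0.964) and Itgbl1 (0.963), and Prg4 to Fn1 (0.935), Aspn (0.935) and Sbsn (0.932). Of the others, Bgn had Dpysl3 (0.985), Ltbp3 (0.980) and Islr (0.980), Prelp had Serpina3n (0.979), Mgp (0.976) and Lbp (0.974), Ogn had Dbn1 (0.988), Tbx15 (0.987) and Sytl2 (0.987), and Omd had Sytl2 (0.956), Twist1 (0.953) and Larp6 (0.953). Of the pairs among the 10 genes, Bgn and Chad were least alike (0.335).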

How the data were processed

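The deposited matrices hold counts, UMIs per gene and barcode, made by the authors with Cell Ranger on mm10 (the headers name software version 3.0.2, the study's methods a different one, and which made the files is not known). Both lanes were summed per barcode (1 sample, no replicates), and barcodes with at least 200 genes and at most 20% mitochondrial UMIs were kept. Cells were clustered with SCTransform (sctransform 0.4.2, Seurat 5.3.0, R 4.3.3; genes in at least 3 cells, 3000 variable genes less the 10 genes and the list genes, 30 components, resolution 0.8; 20 components within the fibroblast-like cells). A cluster was named when at least 3 markers of a list had a UMI in 10% of its cells and 25% of the level of the highest cluster. Clusters with a median depth under that of all cells divided by 3, and no marker of the list among their 10 leading genes, stayed unnamed (4 clusters, 1233 cells). Levels, ratios and exact Poisson, conditional binomial and Clopper-Pearson 95% intervals on the mean of the lanes were computed in Python 3.11.15 (numpy 2.4.6, scipy 1.17.1). Scrublet in scanpy 1.11.5 (expected 8%) called 2.14% and 2.04% of cells doublets in lanes 1 and 2, and these were kept. The ratio and its interval were tested on simulated Poisson counts, the error model that the interval itself assumes. The simulation did not cover the gathering of UMIs in single cells. The members and lists were chosen with earlier results of these data known. Named were the 10 genes, the rest of the family, the 4 most abundant genes past 2-fold each way in each pathway list, the 3 genes with the highest r to each gene, the 5 leading genes of each sub-cluster and list markers. Alternatives changed the filters, doublets, lanes, normalization, resolution, variable genes, gates, averaging, depth and thresholds. Protein features were left out for lack of a protein table.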

Additional observations from a re-analysis of the deposited data

Results flagged for a closer look

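The 1482 barcodes with over 20% mitochondrial UMIs were used in no comparison, yet 8 of the 10 genes stood there above 1.14 CPM, the level of 3 counts. Their median depth was 1220.5 UMIs over both lanes. Dcn was at 95.9 CPM in 31 of these barcodes, and a single barcode held 44.3% of its UMIs. Bgn was at 34.3 CPM in 70 barcodes, Ogn at 13.5 CPM, Aspn at 8.96 CPM, Omd at 7.44 CPM in 29 barcodes, Prelp at 6.29 CPM and Lum at 4.01 CPM. Prg4 was at 4.2 CPM in 5 barcodes, and a single barcode held 81.8% of its UMIs. Fmod and Chad, at 0.191 CPM, were below the level of 3 counts. Of these barcodes, 19 met the gate for LEPR stromal cells.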

How the results depend on the processing

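Over LEPR stromal cells, 133 of 159 ratios of single genes under the alternatives moved by less than their interval, 26 moved further, and no gene past 2-fold changed sign. The range was 3.68 to 4.26 for Dcn, 2.59 to 3.00 for Lum, 6.79 to 7.51 for Fmod, 7.08 to 10.19 for Aspn, 2.48 to 2.84 for Omd, 10.56 to 12.37 for Chad, 5.91 to 7.76 for Prg4 and 0.89 to 1.46 for Ogn. Prelp, within 2-fold, changed sign: it ran from -0.55 without the cell with the most Prg4 to 0.21 without sub-cluster 2, and was 0.18 at resolution 1.2 and 0.01 with a Cxcl12 gate of 2000 CPM. Bgn ran from -1.24 with fibroblast-like cells taken by gate to -0.71 with the latter gate.

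The number of genes lower than in LEPR stromal cells, 0 in the report, was 1 with a Cxcl12 gate of 10000 CPM, with fibroblast-like cells taken by gate and without the cell with the most Prg4, and 0 to 1 with either lane left out. The gene was Bgn, and the cause was not tested. The number higher, 7 in the report, was 8 through Ogn without called doublets, at resolution 1.2, with a Cxcl12 gate of 2000 CPM, with CPM averaged over cells, without the cell with the most Prg4 and without sub-cluster 2, and 7 to 8 with either lane left out. Past 4-fold, a stricter threshold by construction, 379 of 11771 genes were higher and 905 lower, the other family had 0 higher and 1 lower, chain synthesis 2 and 1, collagens and ligands 9 and 0, growth factors and receptors 3 and 1, proteases 3 and 0 and other proteoglycans 4 and 3.

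Over erythroid-like cells 145 of 159 ratios moved by less than their interval, over endothelial-like cells 73 of 74, and among sub-clusters 54 of 60 ratios and counts were unmoved, and no gene with a finite ratio past 2-fold changed sign. Genes at 0 in a group had no ratio there to follow: Dcn, Fmod, Omd, Ogn and Chad over endothelial-like cells, and Fmod and Chad among sub-clusters. At a sub-cluster resolution of 1.2, Fmod was at 7.48 CPM in sub-cluster 1. Without the cell with the most Prg4, Dcn in sub-cluster 0 went from 0.10 to -0.23 and Prelp in sub-cluster 1 from -0.03 to 0.40, both within 2-fold. In CD24 osteolineage cells, without the cell with the most Prg4, 1 of the 10 genes was higher, the Prg4 ratio reversed to -0.26, and that of Dcn went from 0.02 to -0.78. Leaving out that cell or sub-cluster 2 and the sub-cluster resolution of 1.2 were chosen after seeing the data. With cells thinned, 61 of 80 shares of cells with a UMI moved, so depth limits those shares. No paired analysis was possible because the study has a single group and both files hold the same cells.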

Other observations

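In the megakaryocyte-like cluster, a single cell with 20620 UMIs and 3813 genes, not called a doublet, had 428 UMIs of Pf4 together with 81 of Dcn, 60 of Prg4, 57 of Thbs4, 22 of Chad, 20 of Fmod, 16 of Aspn and 13 of Bgn. This cell was picked after its values were seen. It held all the Fmod and Chad UMIs of that cluster.

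The values come from 3 pooled male mice of 1 age, so differences among animals are not seen. The fibroblast-like cells number 144, sub-clusters at most 71, and a single cell moved several levels. The counting intervals hold no biological spread. Doublets were kept, 4 of them called among the fibroblast-like cells. Enzymes release cells unequally, so shares of cells are shares of what was recovered.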
